A study of Saccharomyces cerevisiae with 56 samples.

Results

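Complex insertions are repair products that carry more than 1 donor fragment at a single DSB. The lists of complex insertions hold 91 such events from 10 genotypes, and 40 of them consist of 2 segments from one locus in inverted orientation. The 51 events described here are the rest, chosen by position and strand as every complex insertion except those with only 2 segments on one chromosome, on opposite strands and within 1 kb of each other. They hold 104 donor segments and stand beside 1434 insertions with a single donor, so they are 51 of 1525 insertions in all. Since the segments' positions and strands chose these events, how far apart they lie and how they are oriented is given as a description. The widest inverted pair left out had a gap of 629 bp between its segments, and the next one was at 407 bp. Among the kept events with 2 segments, the nearest on opposite strands of one chromosome had gaps of 5301 bp and 14190 bp, both in *rtt105*Δ.

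The strains carry a galactose-inducible HO endonuclease that cuts *MAT***a**, in a background derived from JKM139. Both silent mating cassettes, *HML* and *HMR*, were replaced by *ADE1* in every strain, controls included, so the cut cannot be repaired from them, and HO is expressed from a *GAL10* promoter placed at *ADE3*. Colonies that survived on galactose were pooled, and the repaired junction was amplified and sequenced by *Break-Ins*. Lists were used for 8 libraries of *rtt105*Δ, 14 of *rad27*Δ, 3 of *rtt105*Δ *rad27*Δ, 3 of *rfa1*-t33 (labelled RFA1-t33), 2 of *rfa1*-t33 *rad27*Δ, 4 of *sgs1*Δ *exo1*Δ, and 2 each of *sgs1*Δ, *exo1*Δ, *mre11*Δ, *mre11*-H125N, *rtt105*Δ *tel1*Δ, *rtt105*Δ *rad1*Δ, *rev3*Δ, *rad30*Δ, *pol32*Δ and *lig4*Δ. Of the *rad27*Δ libraries, 3 are labelled 23C and 3 are labelled 37C, and the common growth protocol gives 30 °C. Each list pools the libraries of a genotype without a read number, so a spread between libraries cannot be computed, the read depth per insertion is unknown, and every interval covers counting error only. Wild-type insertions were not analysed here.

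RPA coats single-stranded DNA, and Rtt105 is a chaperone that helps RPA enter the nucleus and bind DNA. Rad27 is the flap endonuclease that trims 5′ flaps on the lagging strand, and Sgs1 and Exo1 act in the 2 pathways of long-range resection of DSB ends. Ty elements are retrotransposons that are copied into cDNA by reverse transcription and carry a long terminal repeat (LTR) at each end. In Ty1 the 5′ LTR runs into the start of the *gag* coding region and is followed by the site where a tRNA primes reverse transcription. An insertion with more than 1 donor segment holds junctions between segments as well as junctions with the DSB ends.

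The number of segments was low. Of the 51 events, 49 had 2 segments and 2 had 3 segments. One of the latter came from *rtt105*Δ and was made of mitochondrial DNA only, and the other came from *sgs1*Δ *exo1*Δ and was made of Ty segments only. Segment letters A, B and C are used as listed, and whether A lies next to the left DSB end is not stated in the sources used here.

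In *rtt105*Δ, 22 of 583 insertions belonged to this class, which is 3.77% (exact 95% interval 2.38 to 5.66). The share was 2.93% in *rad27*Δ (10 of 341, 1.42 to 5.33) and 2.94% in *rtt105*Δ *rad27*Δ (9 of 306, 1.35 to 5.51). It was 5.13% in *sgs1*Δ *exo1*Δ (4 of 78, 1.41 to 12.6) and 3.03% in *rfa1*-t33 *rad27*Δ (2 of 66, 0.369 to 10.5). The *rfa1*-t33 list held none among 48 insertions, which allows a share of up to 6.25% when set at 3 counts (exact 95% interval 0 to 7.40%). Single events came from *sgs1*Δ (of 44 insertions), *mre11*-H125N (of 9), *mre11*Δ (of 2) and *rtt105*Δ *tel1*Δ (of 19). The *rtt105*Δ *rad1*Δ, *exo1*Δ, *rev3*Δ, *rad30*Δ, *pol32*Δ and *lig4*Δ lists, with 1 to 13 insertions each, held none, a number at which absence says little. The study's own counts give a complex insertion in *rtt105*Δ *rad1*Δ and none in *rtt105*Δ *tel1*Δ, unlike the lists used here. They also give none in *mre11*Δ, where the listed event lies in the mating cassette and the study's insertion totals leave out *MAT***a**. None of 6 comparisons of these shares between genotypes passed Fisher's exact test (adjusted p from 0.868 to 1 over the 6 pairs), which was two-sided here and throughout. The share in *rad27*Δ was 0.777 times that in *rtt105*Δ, and their intervals overlap. In the 1 sequencing run that held both, the counts were 1 of 23 insertions in *rad27*Δ and 4 of 46 in *rtt105*Δ. The genotypes of the other 5 pairs shared no run, so genotype and run cannot be told apart in them.

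Per colony the picture differed, because the genotypes differ in how many insertions of any kind they had. Colonies were taken as labelled, whereas the study divides by colonies corrected for HO cutting, a correction that differs between strains. Rates and ratios with that correction were not computed here. *rtt105*Δ had 0.588 of these complex insertions per 10000 colonies (exact 95% interval 0.368 to 0.890) and *rad27*Δ had 0.122 (0.0585 to 0.224), a ratio of 0.207 (Fisher's exact test, adjusted p = 0.000127 over the same 6 pairs). *rtt105*Δ *rad27*Δ had 0.805 (0.368 to 1.53), which was 6.60 times the value of *rad27*Δ (adjusted p = 0.00046, same exact test). These values count the colonies of the 3 *rad27*Δ libraries labelled 37C, and the pooled list does not state whether it holds their insertions. The study counts 600672 *rad27*Δ colonies, which is the label total without these libraries. On that number the ratio of *rad27*Δ to *rtt105*Δ was 0.283, and *rtt105*Δ *rad27*Δ had 4.83 times the value of *rad27*Δ (adjusted p = 0.00354 for each, Fisher's exact test). That number still counts the 3 libraries labelled 23C. *rtt105*Δ *rad27*Δ and *rad27*Δ shared no sequencing run, so genotype and run cannot be told apart in their ratio. The values of 0.727 in *sgs1*Δ *exo1*Δ and 1.34 in *rfa1*-t33 *rad27*Δ did not differ from *rtt105*Δ by this test. Insertions of all kinds moved the same way, with 15.6 per 10000 colonies in *rtt105*Δ, 4.16 in *rad27*Δ and 27.4 in *rtt105*Δ *rad27*Δ. The value of 4.16 also counts the colonies labelled 37C, and it was not computed without them.

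Relative to inverted pairs, none of 6 comparisons between strains passed. The class made up 22 of 40 complex insertions in *rtt105*Δ, 10 of 26 in *rad27*Δ, 9 of 11 in *rtt105*Δ *rad27*Δ, 4 of 4 in *sgs1*Δ *exo1*Δ and 0 of 3 in *rfa1*-t33. The *sgs1*Δ *exo1*Δ event with 3 segments is counted in the class although it holds overlapping segments on opposite strands. The widest gap with a usable number of events, that between *rtt105*Δ *rad27*Δ and *rad27*Δ, had an adjusted p of 0.176 over the 6 pairs (Fisher's exact test). The comparison was added after the lists had been seen. Position and strand, which chose the class, also separate it from inverted pairs, so these counts are read as a description.

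**Figure D1:**
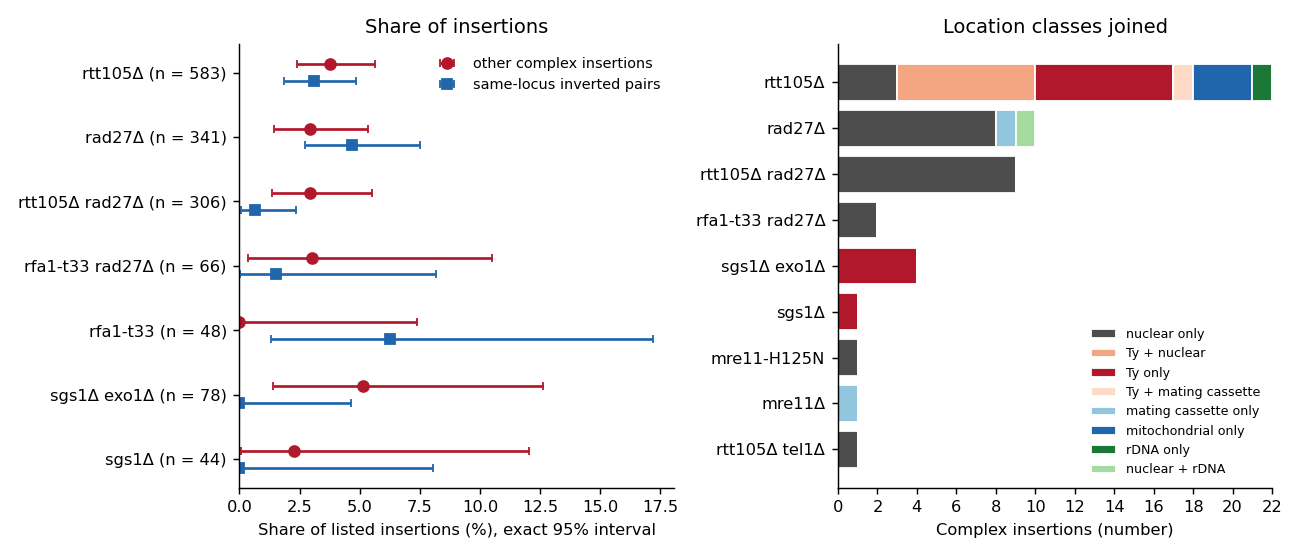
Left, share of all listed insertions (%) that were same-locus inverted pairs (blue squares) or other complex insertions (red circles) in the 7 genotypes with 44 or more insertions, with exact 95% intervals that cover counting error only. Right, number of the other complex insertions by the location classes that they join. The shares of other complex insertions lie between 0% and 5.13% with overlapping intervals. Ty segments appear in *rtt105*Δ, *sgs1*Δ *exo1*Δ and *sgs1*Δ and in none of the 3 strains that lack Rad27. Ty was also rare among the single donors of those 3 strains (4.16% of 673).

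Segments were sorted into nuclear (single-copy or dispersed chromosomal), Ty, rDNA, mitochondrial and mating-cassette classes by their position on the R64 genome. No segment lay on the extra sequence named mp that occurs among single donors. Of the 51 events, 42 joined segments of one class and 9 joined different classes, a number that became 14 with margins of 0 bp around Ty and rDNA and 2 kb around the cassettes. There were 24 nuclear-only events, 12 Ty-only, 3 mitochondrial-only, 2 mating-cassette-only and 1 rDNA-only, and the mixed ones were 7 of nuclear with Ty, 1 of mating cassette with Ty and 1 of nuclear with rDNA. The 7 mitochondrial segments were thus joined to each other and to nothing else.

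The classes were unevenly spread over the genotypes. In the 3 strains that lack Rad27, 19 of 21 events were nuclear only and 0 held a Ty segment. Among the 673 single donors of these strains, 28 were Ty (4.16%). In *rtt105*Δ, 15 of 22 events held a Ty segment, and 22 of the 45 segments (48.9%) were Ty against 32.6% of 543 single donors. Mitochondrial DNA made up 15.6% of the *rtt105*Δ segments and 6.45% of its single donors. All 9 segments of *sgs1*Δ *exo1*Δ were Ty, against 25.7% of its 74 single donors. Segments that share an insertion are not independent, so these shares were not tested.

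In strains without Rad27 the joined segments came mostly from different chromosomes. This was so for 9 of 10 events in *rad27*Δ, 6 of 9 in *rtt105*Δ *rad27*Δ and 1 of 2 in *rfa1*-t33 *rad27*Δ. In *rtt105*Δ it held for 4 of 22 events, and 15 of the others joined segments over 1 kb apart on one chromosome. Events with both segments in Ty lay on one chromosome in 12 of 12 cases, and 5 of the 7 joins of nuclear DNA with Ty did so as well. Of the 20 nuclear-only events from different loci, 3 were on one chromosome. Ty copies are nearly identical, so an alignment cannot tell which copy was the donor, and the chromosome of a Ty segment is the one the deposited list gives. Among all single Ty donors 58.2% were placed on chromosome XVI, as were 19 of 33 Ty segments in complex insertions.

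Between *MUM2* and *UBP14* on chromosome II lies the locus that occurred most often in nuclear joins. *MUM2* encodes a factor needed for mRNA methylation in meiosis, and *UBP14* encodes a ubiquitin protease. The genes are 378 bp apart, and the segments lie near the 3′ end of *UBP14*, which is at position 353672. The locus was in 6 events, 2 of *rad27*Δ and 4 of *rtt105*Δ *rad27*Δ, so it took part in 6 of the 19 events of these 2 genotypes. Single donors from it numbered 3, all in *rad27*Δ, and no inverted pair came from it.

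The 6 segments read the minus strand and the 3 single donors are listed on the plus strand. In *rad27*Δ the segments were chrII:353600-353655 and chrII:353610-353683. In *rtt105*Δ *rad27*Δ they were chrII:353598-353651, chrII:353604-353683, chrII:353602-353649 and chrII:353636-353661. In 5 of the 6 this was segment A, and its far end on the minus strand then fell between 353598 and 353610, a range of 12 bp. The opposite end was more spread, at 353649 to 353683, and in 2 of the 6 it reached 11 bp into *UBP14*.

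The partners of this locus recurred. In *rad27*Δ and again in *rtt105*Δ *rad27*Δ it was joined to the same 30 bp at chrIV:489443-489472 on the plus strand, 36 bp from the 5′ end of *SES1*, the gene of the cytosolic seryl-tRNA synthetase. In another event of each genotype it was joined to the same 31 bp at chrX:76564-76594, again on the plus strand, between the 3′ ends of *RPL39*, a gene of a large-subunit ribosomal protein, and *SWE1*, the gene of the kinase that inhibits Cdc28. The *MUM2* to *UBP14* segments of the 2 events differed by at most 4 bp in the first pairing and 6 bp in the second, and the partners had the same start and end. The 2 genotypes were sequenced in different runs. Neither partner region gave a single donor in any list. The paper reports that inserts in *rad27*Δ often overlap microsatellite DNA. Whether these short partner stretches are repetitive and could align elsewhere was not checked.

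The other 2 partners were in *rtt105*Δ *rad27*Δ. One was 32 bp at chrVII:1063416-1063447 between *ZUO1*, encoding a ribosome-associated chaperone, and *BIO2*, encoding biotin synthase. The other was 68 bp at chrVI:210346-210413 between *CDC14*, the mitotic exit phosphatase gene, and the tRNA gene *SUP6*. That last region also gave 6 single donors, 4 of them in the same genotype.

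**Figure D2:**
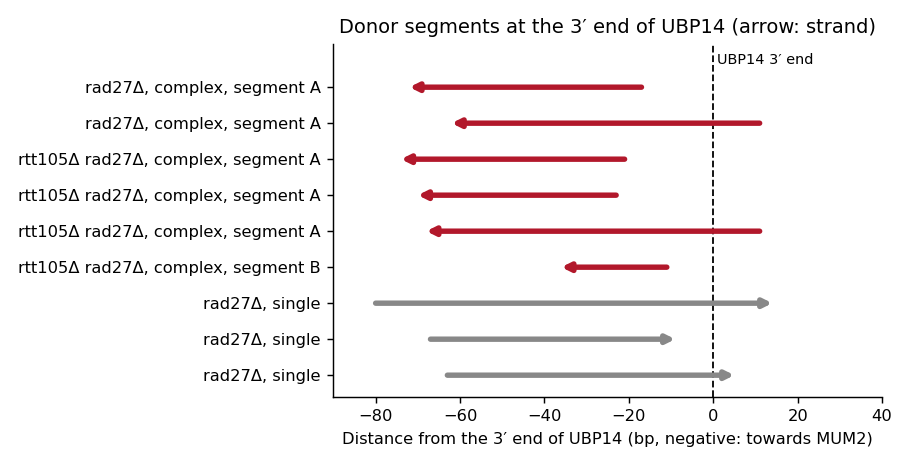
Donor segments that map to the *MUM2* side of the *UBP14* 3′ end or across it, drawn by distance in bp from the 3′ end of *UBP14*, with arrows for the strand. The 6 segments of complex insertions (red) point towards *MUM2* and the 3 single donors of *rad27*Δ (grey) point the other way, and 5 of the red arrows end within 12 bp of each other.

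Outside that locus the nuclear joins in strains without Rad27 were mostly between genes too. *rtt105*Δ *rad27*Δ gave chrV:284386-284453 joined to chrIV:370960-370994, and the same region, as chrV:284386-284471, joined to chrV:225768-225812. The former region is 164 bp from the 5′ end of *VHR2*, and its partners lie between *SIT4*, a phosphatase gene, and *NPC2*, a sterol transport gene, and next to *PHM8*. The same strain joined chrIII:57217-57249 near *SRO9*, encoding an RNA-binding protein, to chrV:192679-192712, which sits between the 5′ ends of *SPC25*, a kinetochore gene, and *ISC1*, a sphingolipid hydrolase gene. It also joined chrIV:930910-930983, 146 bp from the 5′ end of *LYS4*, a gene of lysine synthesis, to chrIV:810451-810493 between the 3′ ends of *SUP35*, a translation termination factor, and *ARG82*.

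In *rad27*Δ, chromosome ends took part in 5 of 10 events, and 8 of its 17 nuclear segments lay within 20 kb of an end (47.1%, against 15.5% of 265 nuclear single donors). In *rtt105*Δ *rad27*Δ, 0 of 18 nuclear segments did so, against 19.1% of 262 single donors. The extreme case started 24 bp from the left end of chromosome IV, at chrIV:24-69, and was joined to chrXVI:462394-462472, 9 bp from the 3′ end of *DIG1*, which encodes a regulator of the mating response. Another, chrIII:316525-316566, was joined to a 30 bp stretch of *DHR2*, a helicase gene of ribosome assembly. Subtelomeric DNA was joined to subtelomeric DNA in 3 events. Of these, 2 paired the same regions, chrVIII:556837-556864 with chrVI:4718-4794 in one and chrVI:4799-4822 with chrVIII:556940-556985 in the other. The chromosome VIII segment was on the minus and the chromosome VI segment on the plus strand in both events, and the order was exchanged. The third paired chrV:570331-570360 with chrXII:1064990-1065090 near *PAU4*. Subtelomeres share repeats, so an alignment may not tell their copies apart.

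The other *rad27*Δ events joined segments of *TAH18* and *HSP60*, the latter a mitochondrial chaperonin gene, and an intergenic rDNA segment, chrXII:460386-460432, to chrVII:80584-80624 next to *EDC1*. *rfa1*-t33 *rad27*Δ joined 166 bp of *ENT2*, an endocytosis gene, to 176 bp overlapping the small reading frame YDL204W-A.

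The position of these joins relative to genes is given as a description, without a test, because the pattern was noticed in these lists. An insertion was counted as genic when any nuclear segment of it overlapped a protein-coding gene. In *rtt105*Δ *rad27*Δ, 1 of 9 events was genic (11.1%, exact 95% interval 0.281 to 48.2), against 169 of 262 single-donor insertions (64.5%, 58.4 to 70.3). Of these 9 events, 4 share the *MUM2* to *UBP14* locus, and with segments at one locus counted once the numbers were 1 of 13 loci against 159 of 221. In *rad27*Δ, 3 of 9 events were genic (33.3%, 7.49 to 70.1) against 179 of 265 (67.5%, 61.5 to 73.1). In *rtt105*Δ, 7 of 10 were genic (70.0%, 34.8 to 93.3) against 161 of 240 (67.1%). Same-locus inverted pairs were genic in 11 of 15 events of *rad27*Δ and in 13 of 14 of *rtt105*Δ. Counted once per locus, *rad27*Δ had 4 of 14 against 175 of 247, and with segments near chromosome ends left out it had 3 of 6 events against 169 of 224.

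**Figure D3:**
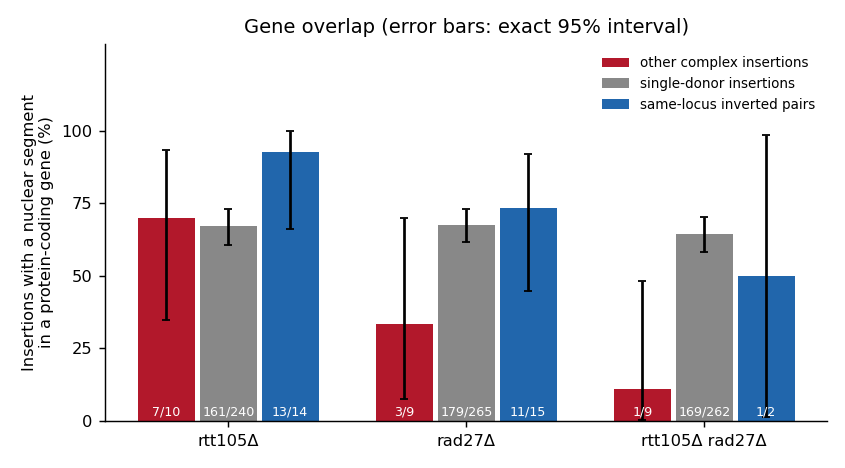
Percent of insertions with at least 1 nuclear segment in a protein-coding gene, for other complex insertions (red), single-donor insertions (grey) and same-locus inverted pairs (blue) in 3 genotypes. Error bars are exact 95% intervals and the fractions are printed in the bars. In *rtt105*Δ *rad27*Δ the red bar stands at 11.1% and the grey bar at 64.5%, whereas in *rtt105*Δ they stand at 70.0% and 67.1%.

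Many Ty segments lay at the ends of the element. Placed on a common scale that starts at 1 with the first base of the Ty reading frame and runs along its sense strand, 14 of 33 segments (42.4%) had an end at position 40 to 55, which is close to where the 5′ LTR gives way to the primer site. This held for 25.2% of the 282 single Ty donors. By genotype it was 8 of 22 segments against 16.4% of 177 single donors in *rtt105*Δ, and 4 of 9 segments against 68.4% of 19 single donors in *sgs1*Δ *exo1*Δ. The window was chosen after the positions had been seen, and the shares were not tested.

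Joins of segments listed at the beginning and at the far end of the element were the recurrent type. The LTRs at either end carry the same repeat, so an alignment may not tell these ends apart. *rtt105*Δ and *sgs1*Δ *exo1*Δ each joined chrXV:123536-123628 to a segment that ended at 118131, starting at 118014 in the former and 118016 in the latter. Both lie in the element of YOL103W-B, at positions 5537 to 5629 and 15 to 132 on its scale in *rtt105*Δ, and all 4 segments are antisense. *rtt105*Δ also joined chrXVI:56748-56796 to chrXVI:804682-804767, and *sgs1*Δ *exo1*Δ joined chrXVI:56747-56790 to chrXVI:804683-804743. These are positions 1 to 49 antisense and 5503 to 5588 sense in the *rtt105*Δ case, on the elements of YPL257W-B and YPR137C-B. A further *sgs1*Δ *exo1*Δ event held chrXVI:804645-805073 and then chrXVI:56742-56791, from the same regions with strands and order both reversed and with segment ends up to 330 bp away. The 2 genotypes were sequenced in different runs.

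The remaining Ty-only events varied. In *rtt105*Δ they joined position 3498 to 3635 with -53 to 51 of one element, 5168 to 5477 with -116 to 42, 924 to 1087 with -51 to 48, -283 to -72 with 5230 to 5261, and -51 to 43 with 481 to 796. The single *sgs1*Δ event joined -53 to 48 with 44 to 144, both antisense, on the elements of YPR137C-B and YPR158C-D. The event with 3 segments in *sgs1*Δ *exo1*Δ held chrXII:215176-215241, which lies 199 bp past the 3′ end of YLR035C-A, a frame of 3468 bp that is too short for the common scale, then -56 to 42 antisense and 0 to 51 sense, both at YLR227W-B. The last 2 of these segments, chrXII:593381-593479 and chrXII:593437-593488, overlap on opposite strands, so this event holds a same-locus inversion. It was kept because the rule leaves out only events with 2 segments. Once placed on this scale, no 2-segment event had opposite senses within 1 kb, and 3 of the 12 Ty-only events had the same sense within 1 kb. The scale keeps the LTRs at either end apart although they carry the same repeat. Segments of opposite sense listed in LTRs at opposite ends are therefore not counted as close, and their distance within the LTR was not examined.

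**Figure D4:**
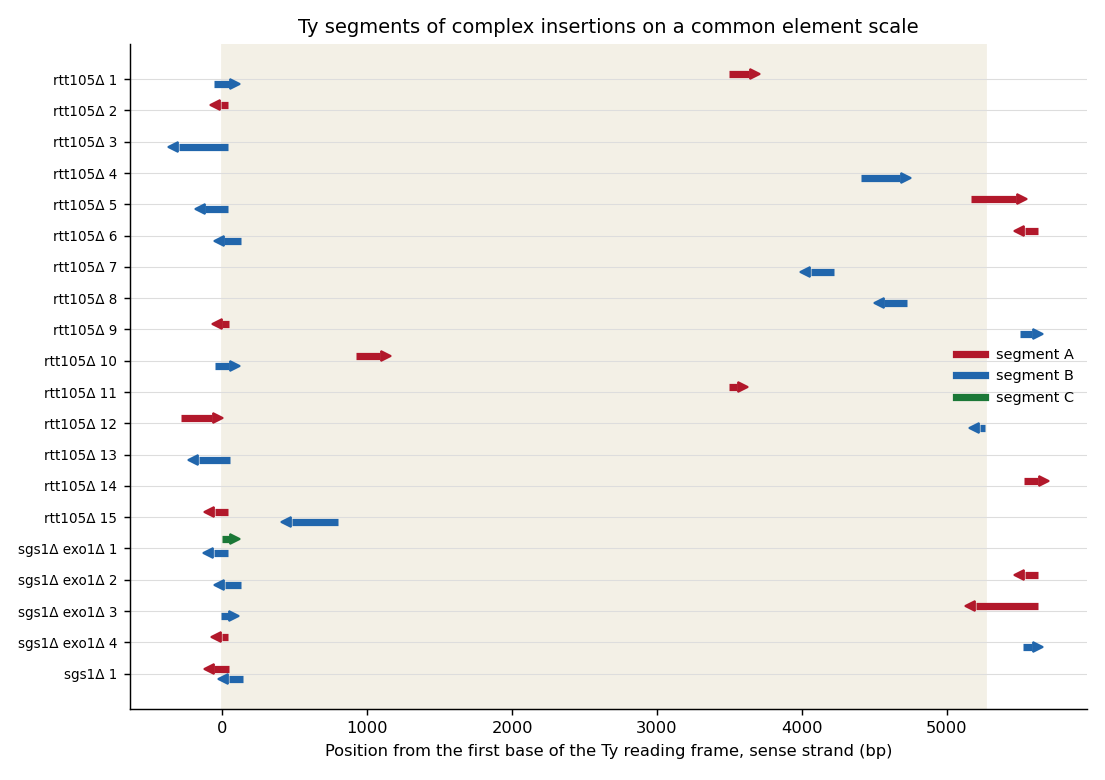
Ty segments of the 20 complex insertions that hold one, placed by their position in bp from the first base of the Ty reading frame along its sense strand. Each row is an insertion, arrows show the strand, the shaded area is a reading frame of 5269 bp, and rows with 1 arrow have their other segment outside Ty. The segment beside the shorter frame YLR035C-A is not drawn. Segments gather at the start of the frame and beyond its end, and 14 of 33 have an end at position 40 to 55.

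Partners of Ty in mixed events were named genes in several cases. *rtt105*Δ joined Ty segments to *GTF1*, a gene of mitochondrial tRNA amidation, at chrVII:694820-695087, to *PPT1*, a phosphatase gene, at chrVII:737295-737498, to *GID11* at chrXII:439787-439859, and to *TIR4*, a cell wall mannoprotein gene, at chrXV:344422-344781. It also joined Ty to intergenic DNA at chrV:434761-434793 and chrIII:168601-168948, both within 229 bp of a tRNA gene, and to chrXVI:62538-62590. This last segment begins 522 bp past the reading frame of YPL257W-B and was classed as nuclear because the Ty margin is 400 bp. The nuclear segment was listed first in 4 of the 7 joins and the Ty segment in 3. The remaining mixed event joined 43 bp listed within *HMRA1* on the reference, chrIII:294128-294170, to the element of YMR050C. *HMR* is deleted in these strains, so a segment listed there means *MAT***a**.

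Segments from one locus in the same orientation occurred in 7 events. In *rad27*Δ and *mre11*Δ the segments lay in the mating cassette, which in these strains means *MAT***a**, since *HMR* is deleted and the reference genome is *MAT*α. The *mre11*Δ event held chrIII:294346-294587 and chrIII:294274-294428, and the *rad27*Δ event held chrIII:294346-294569 and chrIII:294298-294428. They share the start at 294346 and the end at 294428 and so repeat the same 83 bp, and both libraries were sequenced in one run. The study's own counts hold no complex insertion of *mre11*Δ. Counting joins whose segments overlapped in the same order and on the same strands, 5 pairs of events recurred between genotypes and took in 10 of the 51 events, and this pair was the single one within a run.

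The other events of this kind were as follows. In *rtt105*Δ, *FLO1*, a flocculation gene, gave chrI:207404-207709 followed by chrI:207693-207812, which overlap by 17 bp, and *CKB2*, a subunit gene of casein kinase 2, gave chrXV:406419-406533 and chrXV:406398-406442, which overlap by 24 bp. *rfa1*-t33 *rad27*Δ gave chrIV:930943-931007 and, inside it, chrIV:930968-931006, at the same *LYS4* site as the *rtt105*Δ *rad27*Δ event above. *rtt105*Δ *rad27*Δ gave chrIII:114129-114386 and chrIII:114418-114656, which leave out 31 bp between them, and *rtt105*Δ joined 2 segments of one Ty element that are 437 bp apart. Just beyond the 1 kb limit, *rtt105*Δ *tel1*Δ joined 127 bp of *GAL11*, a Mediator subunit gene, at chrXV:237397-237523 to 127 bp of its neighbour *GSH2*, the glutathione synthetase gene, at chrXV:238794-238920. *rtt105*Δ joined rDNA segments at chrXII:455303-455489 and chrXII:457301-457502, with a gap of 1811 bp on the reference, although the repeat is present in many copies.

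Mitochondrial joins came from *rtt105*Δ. The event with 3 segments held chrMT:25475-25611 in *COX1*, chrMT:17035-17137 in its intron region and chrMT:83857-83948 between genes. The others joined chrMT:12370-12506 to chrMT:6204-6387 and chrMT:57881-57985 to chrMT:2049-2113. Distances on the mitochondrial reference were thus 5982 bp or more.

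Of the remaining nuclear events, *rtt105*Δ joined 250 bp between *BUD14* and *ADE1*, chrI:169071-169320, to 220 bp of *UBP9*. The former segment ends 55 bp from the 5′ end of *ADE1*, and *ADE1* also replaces the silent cassettes in these strains. The *mre11*-H125N event joined 331 bp around the tRNA gene YNCG0033W, chrVII:739157-739487, to 50 bp of *SNR6*, the U6 small nuclear RNA gene, at chrXII:366235-366284. Both genes are transcribed by RNA polymerase III.

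Over all 49 events with 2 segments, 29 held both on the same strand of the reference and 20 on opposite strands. Where the segments came from different chromosomes the split was 9 and 12. Segment A was longer in 14 and segment B in 7 of the 21 events from strains without Rad27, and in 9 and 12 of 21 from *rtt105*Δ.

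Segments were short in *rad27*Δ and long in *rtt105*Δ, as single donors were. The median over events of the mean segment length was 157 bp in *rtt105*Δ (n = 22, 67.5 to 235), 48.2 bp in *rad27*Δ (n = 10, 35 to 178) and 51.5 bp in *rtt105*Δ *rad27*Δ (n = 9, 33.5 to 249). Single donors had medians of 141, 63.0 and 69.0 bp. None of these differences passed a median test, made as Fisher's exact test on insertions above and not above the joint median (adjusted p = 0.395, 0.156 and 0.109). The shortest segment of an event was below the single donors, with medians of 92.5, 30.5 and 33 bp (adjusted p = 0.0111, 0.0295 and 0.0363, same exact test). A minimum over more than 1 segment is lower by construction. The total captured length was above that of single insertions, with medians of 320.5 bp in *rtt105*Δ (135 to 470), 96.5 bp in *rad27*Δ (70 to 355) and 103 bp in *rtt105*Δ *rad27*Δ (67 to 497). These sums also exceed by construction, and they passed the exact test (adjusted p = 1.16e-05, 0.00102 and 0.0184). The longest sum of 497 bp was close to the longest single donor of 487 bp.

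Very short segments were frequent in strains without Rad27, a difference that was not tested. Of their 42 segments, 15 were 40 bp or shorter (35.7%), against 4.61% of 673 single donors and 44.7% of 38 segments of inverted pairs. These short segments were spread over 14 of the 21 events. The corresponding values in *rtt105*Δ were 2 of 45 segments and 0.552% of single donors.

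**Figure D5:**
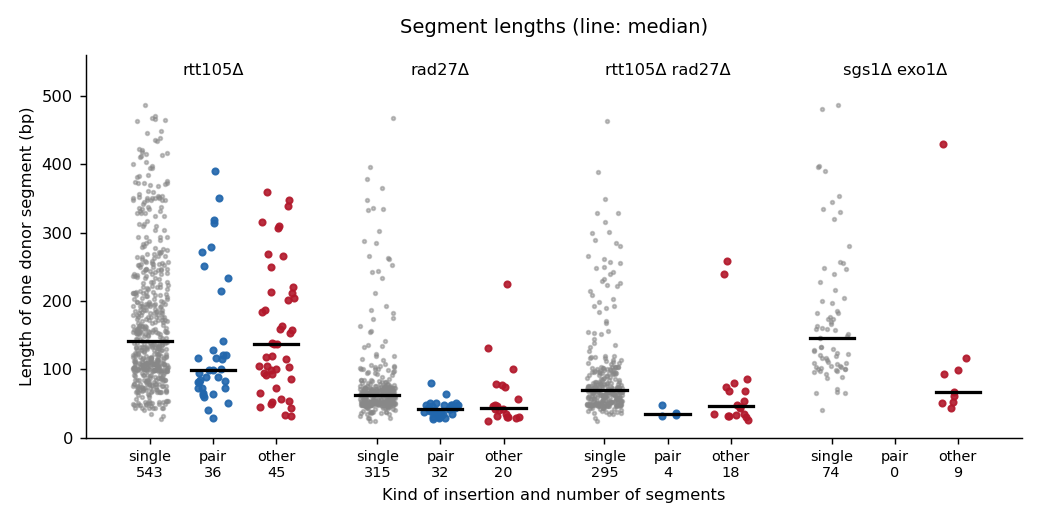
Length in bp of each donor segment for single-donor insertions (grey), same-locus inverted pairs (blue) and other complex insertions (red) in 4 genotypes. Each point is a segment, black lines are medians, and the number of segments is printed under each column. Medians of the red points are 137 bp in *rtt105*Δ, 44 bp in *rad27*Δ, 46.5 bp in *rtt105*Δ *rad27*Δ and 66 bp in *sgs1*Δ *exo1*Δ.

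Of the 104 segments, 53 overlapped a single donor of some genotype and 37 overlapped one of their own genotype. In *rtt105*Δ *rad27*Δ the numbers were 11 and 6 of 18, and in *rad27*Δ they were 10 and 8 of 20. In *rtt105*Δ, 19 of 45 segments overlapped a single donor of some genotype, and 17 one of *rtt105*Δ itself. How often single donors overlap each other was not computed, so whether these counts are high or low cannot be said.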

How the data were processed

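*Break-Ins* amplicons of 56 libraries were analysed. The authors searched the merged reads for inserts longer than 10 bp by BLASTN and removed redundant reads, and the deposited lists hold another kind of unit, namely the position in base pairs and the strand of each donor on R64, with no read count. Colony numbers were summed from the labels, without the study's correction for HO cutting. Of 30 files, 4 were not used. They are the library map, a complex list of *rtt105*Δ *rad1*Δ that holds no donor, and the 2 lists whose name combines *rtt105* and RFA1-t33, which matches no library. The library map gives those 2 lists to the *rad27* RFA1-t33 libraries, for which the lists of that name were used. It gives the list called *rev3* to *yku70*Δ, and *yku70*Δ was therefore left out. For *rtt105*Δ with *tel1*Δ or *rad1*Δ, the list is attached to 1 library of the genotype.

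Starts were made 1-based. The Ty class took in 400 bp on either side of Ty reading frames, the rDNA class 500 bp and the mating class 700 bp. Genes and their directions came from the RefSeq R64 table. Shares and colony frequencies were compared with Fisher's exact test and lengths with a median test on insertions, each with p-values adjusted by Benjamini-Hochberg. The script was tested on simulated data. Events named were those with 3 segments, with different classes, with segments within 10 kb or at loci in several events, and the remaining nuclear events. The members, lists and tests were chosen with earlier results of these data known, and the description of gene overlap, the comparison with inverted pairs and the Ty scale were added after the lists had been seen. Alternatives were other pair distances, margins, filters and tests. Microhomology and donor sequences were not analysed here. SciPy 1.17.1, pandas 2.3.3 and NumPy 2.4.6 were run under Python 3.11.15.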

Additional observations from a re-analysis of the deposited data

How the results depend on the processing

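Of 151 alternative values, 139 kept their direction and side of the threshold. For shares of all insertions, no pair distance, filter, duplicate rule or chi-square test turned a comparison or made it pass, and no alternative ended either colony-based call, the largest move of which came without the colonies of the *rad27*Δ libraries labelled 37C (0.283 and 4.83). With members holding a Ty segment, or lying wholly within 20 kb of chromosome ends, left out (chosen after seeing the data), ratios to *rtt105*Δ turned to 1.96 in *rad27*Δ, 2.78 in *rtt105*Δ *rad27*Δ and 2.86 in *rfa1*-t33 *rad27*Δ, and to 0 in *sgs1*Δ *exo1*Δ, none passing the exact test. Length differences from single donors in *rtt105*Δ, *rad27*Δ and *rtt105*Δ *rad27*Δ were 16.2, -14.8 and -17.5 bp for the mean segment, -48.5, -32.5 and -36 bp for the shortest, and 180, 33.5 and 34 bp for the sum, and the longest segment in *rad27*Δ gave 2 bp. The shortest and the sum differ by construction. The percent of events with a nuclear segment in a gene, which was not tested, stayed within the exact interval of its main value in all 12 alternatives, all chosen after seeing the data. With margins of 0 bp for Ty and rDNA and 2 kb for cassettes, 14 instead of 9 events joined different classes. Where not shown, the cause was not tested. No paired analysis was possible because the lists pool libraries and carry no replicate number, and for the same reason no library could be left out. Microhomology at the junctions was not run. The read depth per insertion is unknown.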
